A study of Ovis aries with 20 samples.

Results

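Expression was compared between the ileum and the jejunum of pregnant Hu sheep under restricted feeding, in 10 of the 20 libraries of the series. The members were chosen by their titles and feeding labels: 5 ileal and 5 jejunal libraries, numbered 1 to 5 in each segment, all labelled wild type (WT) and taken from ewes at 115 days of gestation. The other 10 libraries, 5 of each segment, came from normally fed ewes of the same breed and stage. The labels do not say how far feed was restricted, or whether equal numbers mark the same ewe.

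The jejunum is the middle part of the small intestine and takes up most sugars, amino acids and fats. The ileum is its last part, where bile acids and vitamin B12 are recovered. In young ruminants it carries large lymphoid follicles, the ileal Peyer's patch. Enterocytes of both segments share most of their genes, and a smaller set of transporters, enzymes and binding proteins is set by position along the gut.

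Values were FPKM, fragment counts scaled by transcript length and by library size, as deposited for each library. Genes carry an ID with no symbol beside it. The segment labels could therefore not be checked against markers of jejunum, ileum or any cell type, and pathways could not be described. A total of 12640 of the 17683 genes listed in both segments stood at 1 FPKM or more in at least 5 of the 10 restricted libraries and were tested. Depth, relative to jejunal library 1, ran from 0.922 to 1.03 in the restricted jejunum and from 0.991 to 1.10 in the restricted ileum. In whole tissue, a lower value can mean fewer cells of a type or less RNA per cell, which cannot be told apart.

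Both libraries numbered 2 stood apart from the other 8, so results are given with and without them. Their expression correlated with each other at r = 0.976 across the 12640 genes, on the log2(FPKM + 1) scale, higher than any other pair of restricted libraries. For numbers 1, 3, 4 and 5 the ileal and the jejunal library of equal number correlated at 0.937, 0.915, 0.946 and 0.938. The jejunal library 2 correlated with the other jejunal libraries at 0.850 to 0.925 and with the other ileal ones at 0.847 to 0.934. The ileal library 2 correlated with the other ileal libraries at 0.838 to 0.929 and with the other jejunal ones at 0.839 to 0.914. Neither library was thus clearly closer to its labelled segment than to the other. Without them, libraries of 1 segment correlated at 0.932 to 0.971 in the jejunum and 0.901 to 0.960 in the ileum. The relative depth of both, 1.03 in the jejunum and 0.991 in the ileum, lay within 0.922 to 1.10, the range of the other restricted libraries. Their summed FPKM, 490483 and 518472, was the highest of its segment.

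**Figure D1:**
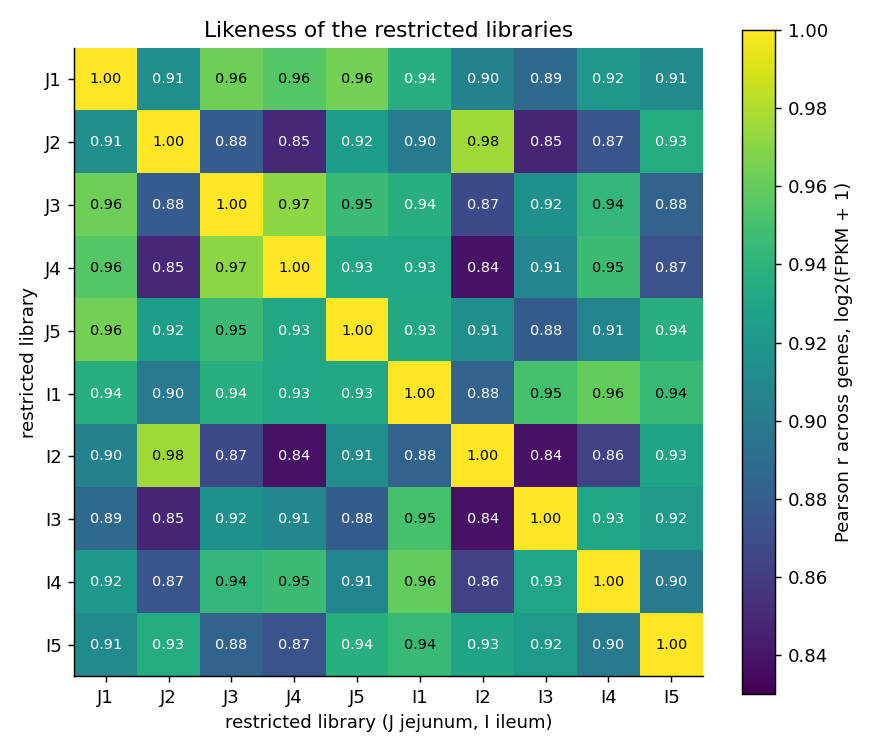
Pearson correlation across 12640 genes, on log2(FPKM + 1), between each pair of the 10 restricted libraries, with jejunum J1 to J5 and ileum I1 to I5 on both axes. The pair J2 and I2, at 0.976, is the brightest cell off the diagonal, while the rows of both are darker than those of most other libraries.

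Between ileum and jejunum under restricted feeding, 208 genes had a mean at least 2-fold higher in the ileum and 145 a mean at least 2-fold higher in the jejunum. These are 1.65% and 1.15% of the genes tested. None of the 12640 genes passed an adjusted p of 0.05 (limma, smallest adjusted p = 0.147; 0% of genes). An unadjusted p under 0.05 was reached by 1397 genes, 11.1% of those tested: in 1026 (8.12%) the ileum was the higher segment, and in 371 (2.94%) the jejunum. The share higher in the ileum, 73.4% of these genes, depended on the scaling: it was 66.8% with equal totals and 50.9% after quantile normalization. With the library number as a block 0 genes passed (limma, smallest adjusted p = 0.0941) and 2614 had an unadjusted p under 0.05, 20.7% of those tested.

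Most genes that separated all 10 libraries differed less than 2-fold, as did most genes tested. The 5 ileal libraries all lay above the 5 jejunal ones in 222 genes and all below in 73, together 2.33% of the genes tested. The median difference was 0.45 on the log2 scale in the first set and -0.55 in the second. In these sets 20 and 10 genes reached 2-fold, where 2.79% of all genes tested did. Their levels were moderate. Ileal and jejunal medians were 13.7 FPKM and 9.13 FPKM for the 222 genes, which make up 1.76% of those tested, and 11.1 FPKM and 16.9 FPKM for the 73, which make up 0.578%. Of the 353 genes with a mean 2-fold difference, 30 did not overlap between the segments, where 2.33% of all genes tested did not.

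The 353 genes with a 2-fold difference in means were followed by library. The 208 genes higher in the ileum had medians of 21.8, 7.15, 32.7, 20.9 and 18.7 FPKM in ileal libraries 1 to 5. In jejunal libraries 1 to 5 their medians were 3.997, 6.52, 5.56, 5.16 and 4.07 FPKM. Ileal library 2 was the lowest ileal and jejunal library 2 the highest jejunal one, so that both met near 7 FPKM. The 145 genes higher in the jejunum had medians of 34.05, 4.94, 35.3, 43.6 and 19.1 FPKM in jejunal libraries 1 to 5. In ileal libraries 1 to 5 they stood at 8.98, 4.74, 4.65, 15.5 and 3.66 FPKM. Jejunal library 2 lay with the ileal libraries here, and ileal library 4 was the highest of its segment. Without number 2, the segments did not overlap in 118 of the 208 and 68 of the 145 genes, where 11.2% of all genes tested did not overlap. The 353 genes were chosen for their difference in these same libraries, which favours groups that do not overlap.

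The gene with the largest difference towards the ileum was gene10088. In ileal libraries 1 to 5 it stood at 7937, 2.78, 3946, 799 and 3062 FPKM. In jejunal libraries 1 to 5 it stood at 7.17, 29.8, 0.745, 0.204 and 8.64 FPKM. The groups overlapped through number 2 alone, whose ileal library lay below its jejunal one. Its log2 difference, ileum minus jejunum, was 7.15 ± 1.90 (SE, limma, adjusted p = 0.210). Without both libraries numbered 2 it was 9.69 ± 0.855 (SE, limma, adjusted p = 0.00147), and it passed. On average this single gene made up 0.685% of the summed FPKM of a restricted ileal library.

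The gene with the largest difference towards the jejunum was gene5654. Jejunal libraries 1 to 5 held 8828, 149.9, 10434, 6883 and 4484 FPKM. Ileal libraries 1 to 5 held 18.7, 49.6, 3.77, 467 and 1.69 FPKM. Jejunal library 2 lay below ileal library 4, and the other 4 jejunal libraries lay above all ileal ones. In number 2 the jejunal library stayed above the ileal one, so the direction was not reversed there, unlike for gene10088. The log2 difference was -7.21 ± 1.52 (SE, limma, adjusted p = 0.149), or -8.62 ± 1.39 without both libraries numbered 2 (SE, limma, adjusted p = 0.0224). It took 1.35% of the summed FPKM of a jejunal library on average and 0.0242% of an ileal one.

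The genes with the smallest p among those that did not overlap were of low abundance and differed about 2-fold on the log2(FPKM + 1) scale. Towards the ileum this was gene12423, at 5.08, 4.59, 5.11, 3.85 and 6.42 FPKM in ileal libraries 1 to 5. In jejunal libraries 1 to 5 it stood at 2.19, 2.24, 1.82, 2.21 and 1.32 FPKM. Library 2 of either segment lay among its own group. The log2 difference was 1.02 ± 0.146 (SE, limma, adjusted p = 0.147), and 1.08 ± 0.169 without both libraries numbered 2 (SE, limma, adjusted p = 0.0198).

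Towards the jejunum it was gene27362, at 3.35, 4.23, 3.76, 2.76 and 3.89 FPKM in jejunal libraries 1 to 5. In ileal libraries 1 to 5 it stood at 1.26, 2.38, 1.11, 0.882 and 1.24 FPKM. Ileal library 2 was the highest of the ileum, but stayed below all jejunal libraries. The log2 difference was -0.98 ± 0.169 (SE, limma, adjusted p = 0.147), and -1.06 ± 0.134 without both libraries numbered 2 (SE, limma, adjusted p = 0.00744). Over the alternatives tried, the adjusted p ran from 0.00119 to 0.438 for gene10088 and from 0.00711 to 0.387 for gene5654 (limma). For gene12423 and gene27362 it ran from 0.00576 to 0.384 (limma).

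**Figure D2:**
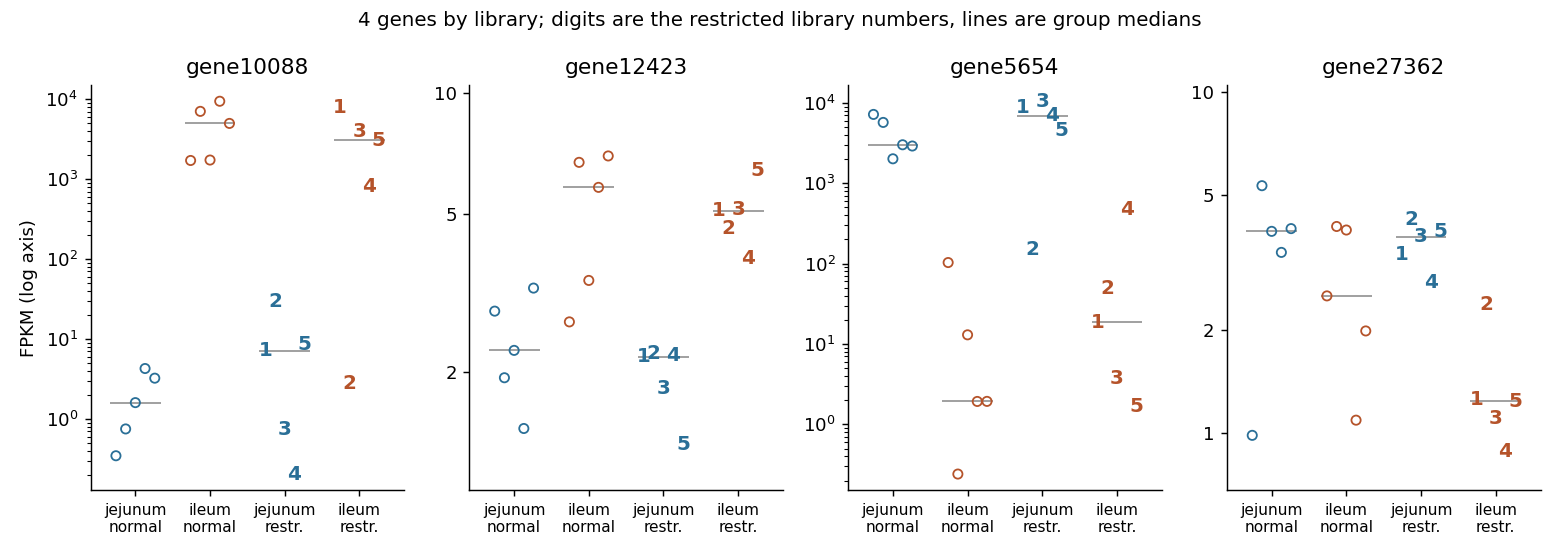
FPKM on a log axis of gene10088, gene12423, gene5654 and gene27362 in each library, by segment and feeding; digits are the numbers of the restricted libraries, open circles are normally fed libraries, and lines are medians of 5 libraries. For gene10088 ileal library 2 lies among the restricted jejunal libraries, and for gene5654 jejunal library 2 lies among the restricted ileal ones. For gene12423 and gene27362 the restricted segments do not overlap.

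Without both libraries numbered 2, 274 genes passed between the segments, 2.17% of the 12640 tested (limma, 4 libraries a segment). Of these, 185 were higher in the ileum, 1.46% of genes, with a median log2 difference of 1.05, an ileal median of 21.1 FPKM and a jejunal one of 6.78 FPKM. The other 89 were higher in the jejunum, 0.704% of genes, with a median of -1.23, a jejunal median of 26.4 FPKM and an ileal one of 6.85 FPKM. In the ileal set 103 genes differed at least 2-fold and 11 at least 16-fold, and in the jejunal set 60 and 7 did. With the number as a block as well, 857 genes passed, 6.78% of those tested, and they held 272 of the 274. Leaving out number 2 was chosen because it stood apart, which favours a higher count. Leaving out the ileal library 2 alone gave 97 genes and the jejunal library 2 alone 137, and leaving out any other single library gave 0.

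The libraries numbered 2 were then placed between the segments for these 274 genes, which were chosen without them. On a scale from 0, the mean of the other jejunal libraries, to 1, the mean of the other ileal ones, the 185 ileal genes had a median of 0.438 in jejunal library 2 and 0.486 in ileal library 2. For the 89 jejunal genes the medians were 0.729 and 0.703, nearer to the ileum in both libraries. The 2 libraries of this number thus lay side by side, about midway for the genes of the ileum and with low levels of those of the jejunum. Within number 2, 87 of the 185 and 44 of the 89 genes had the direction seen in the other libraries.

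Each number gave its own difference between an ileal and a jejunal library. In number 1, 476 genes were at least 2-fold higher in the ileum and 283 at least 2-fold higher in the jejunum. Number 3 had the most, with 589 and 429 genes. Number 5 had 575 and 269, and number 4 had 403 and 226. In number 2 there were 176 and 124, together 2.37% of the genes tested against 4.98% to 8.05% in the others. Differences of 16-fold or more towards the ileum were found in 12 to 25 genes of the other numbers and in 0 genes of number 2, and towards the jejunum in 6 to 26 genes and in 3 genes of number 2. With FPKM as deposited, the genes 2-fold higher in the ileum outnumbered those 2-fold higher in the jejunum in all 5 numbers. At 16-fold this held only in numbers 1 and 4, at 25 against 10 and 17 against 6 genes. In numbers 2, 3 and 5 more genes were 16-fold higher in the jejunum, at 3 against 0, 26 against 19 and 19 against 12.

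**Figure D3:**
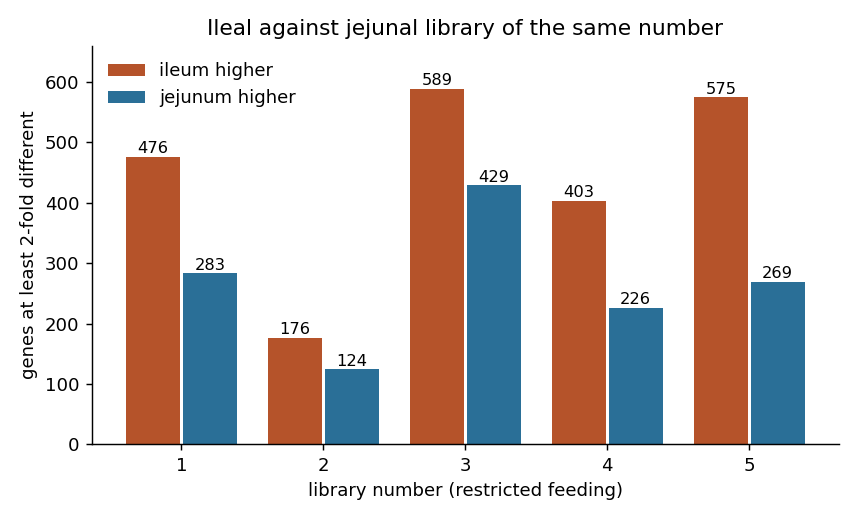
Number of genes, of 12640 tested, that differed at least 2-fold on the log2(FPKM + 1) scale between the ileal and the jejunal library of the same number under restricted feeding. Bars for genes higher in the ileum exceed those for genes higher in the jejunum in each number, and number 2 has the lowest bars, at 176 and 124.

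A core of genes differed in the same way in the other 4 numbers. It held 89 genes at least 2-fold higher in the ileum and 50 at least 2-fold higher in the jejunum in each of numbers 1, 3, 4 and 5. Their median log2 difference over these numbers was 2.07 and -2.27. In number 2 the same genes had medians of -0.15 and 0.06, and 5 of the 89 and 1 of the 50 were 2-fold different in the same direction. When another number was set aside in place of number 2, 5 to 7 genes were 2-fold higher in the ileum in the remaining 4 and 1 to 3 in the jejunum. Of the 12640 genes tested, 1551 had the ileum higher by any amount in all 5 numbers and 740 the jejunum. With FPKM as deposited, 51.5% to 58.5% of all genes tested were higher in the ileum within a number. Equal signs in all 5 numbers also arise by chance, and how many genes that would give was not tested.

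Genes that set both libraries of a number apart, whatever the segment, were mostly those of number 2. In 187 genes both libraries numbered 2 lay at least 2-fold below each of the other 8 restricted libraries, and in 11 genes at least 2-fold above. For the other restricted numbers the corresponding counts were 1 to 8 below and 1 to 6 above, and for the 5 normally fed numbers 2 to 7 and 0 to 2. The 187 genes had a median of 2.05 FPKM in jejunal and 1.77 FPKM in ileal library 2, against 17.2 FPKM in the other restricted libraries. In 50 of them both libraries stayed below 1 FPKM. The 10 normally fed libraries, which played no part in their choice, had a median of 15.5 FPKM, and in 180 of the 187 genes both libraries numbered 2 lay below all 10. The 11 higher genes were abundant, with medians of 301 FPKM and 424 FPKM against 70.1 FPKM in the other restricted libraries, and in 11 of 11 both lay above all 10 normally fed libraries. Of the 187, 4 (2.14%) were among the 828 genes that passed between the segments under normal feeding, as were 2 of the 11 (18.2%) and 6.24% of the 12640 genes tested.

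Variation over the 10 restricted libraries was divided between segment and number. Of the sum of squares over 12496 genes tested under both feedings, 18.6% lay between the segments (1 degree of freedom), 62.8% between the 5 numbers (4 degrees of freedom) and 18.6% in the remainder (4 degrees of freedom). Per degree of freedom these were 18.6%, 15.7% and 4.64%. Without number 2 these shares were 35.1%, 46.5% and 18.3%, or 35.1%, 15.5% and 6.11% per degree of freedom. Leaving out number 1, 3, 4 or 5 instead kept the segment at 16.6% to 20.8%. Under normal feeding the segment held 35.9% and the number 39.8%, or 9.95% per degree of freedom. The median SD among libraries of 1 group was 0.275 in the restricted jejunum and 0.302 in the restricted ileum on the log2 scale, and 0.181 and 0.227 under normal feeding. Without library 2 it was 0.221 in the restricted jejunum and 0.262 in the restricted ileum. These are descriptions, with no test of a difference between the feedings.

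**Figure D4:**
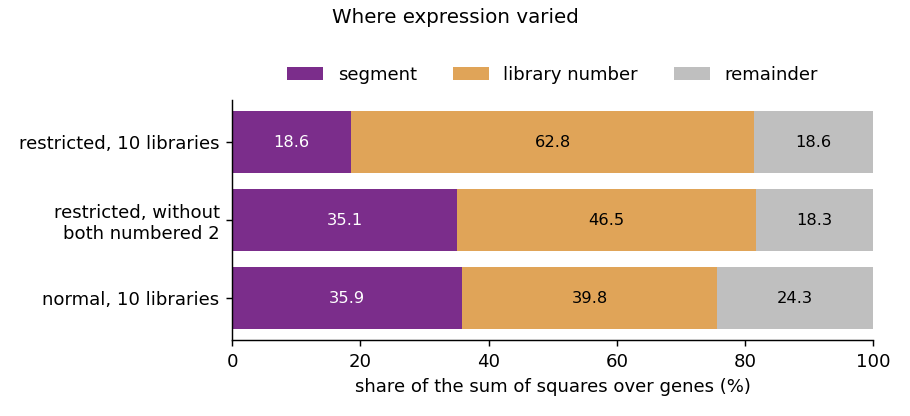
Shares of the sum of squares of log2(FPKM + 1), over 12496 genes, that lay between the segments, between the library numbers and in the remainder, for the 10 restricted libraries, the 8 without number 2, and the 10 normally fed libraries. The segment share is 18.6% in the first bar and 35.1% and 35.9% in the others.

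The differences were then followed by level. Among 6054 genes with a mean below 10 FPKM, the segments did not overlap in 99 towards the ileum and 25 towards the jejunum, or 2.05%. Of 5927 genes between 10 and 100 FPKM they did not overlap in 117 and 43, or 2.70%. For the 596 genes between 100 and 1000 FPKM the counts were 6 and 5, or 1.85%, and for the 63 genes above 1000 FPKM they were 0 and 0. Of these 63 genes, 5 had an unadjusted p under 0.05, and 4 passed without both libraries numbered 2 (limma). With FPKM as deposited, the median log2 difference was 0.07 in the lowest class, 0.04 in the next, 0.00 between 100 and 1000 FPKM and -0.10 above. Genes 2-fold higher in the jejunum outnumbered those of the ileum in the class from 100 to 1000 FPKM, at 27 against 18, as they did above it, at 4 against 1.

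The most abundant transcripts were compared next. Of the 10 genes with the highest mean in each restricted segment, 7 were the same, and of the highest 100, 90 were. The 10 highest of the jejunum took 8.91% to 11.9% of the summed FPKM of a jejunal library, and those of the ileum 8.33% to 11.3% of an ileal one. Among the 110 genes in either list of 100, 14 (12.7%) had a mean 2-fold difference between the segments, against 2.79% of all genes tested, and 3 (2.73%) did not overlap, against 2.33%. Among the 13 genes in either list of 10, 5 had a mean 2-fold difference and 0 did not overlap. A gene high in only the ileum or only the jejunum could enter these lists, which favours a 2-fold difference among them. The scale used also understates the change of low genes, so all genes tested are not a like base. Whether abundant genes differ more often between the segments was therefore not tested.

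A small group of genes was nearly silent in 1 segment. With all 10 libraries, 9 genes had a mean of 10 FPKM or more in the ileum and below 1 FPKM in the jejunum, and 7 had the reverse. Without both libraries numbered 2 these were 18 and 10. Of the 18, 11 met the filter of the test, and of the 10, 3 did, so most of the jejunal ones were not among the genes tested. The 18 ileal genes had medians of 13.6, 0.389, 47.8, 14.7 and 15.3 FPKM in ileal libraries 1 to 5. In jejunal libraries 1 to 5 they stood at 0.0998, 0.711, 0.217, 0.0411 and 0.208 FPKM. Ileal library 3 was the highest for 14 of them, and ileal library 2 fell short of 1 FPKM in 11, with 7 of 18 at 1 FPKM or more. Jejunal library 2 also reached 1 FPKM in 7 of the 18. Only 9 of the 18 were at 5 FPKM or more in all of ileal libraries 1, 3, 4 and 5.

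The 10 jejunal genes had medians of 23.2, 0.263, 13.8, 23.6 and 8.98 FPKM in jejunal libraries 1 to 5. In ileal libraries 1 to 5 they stood at 0.0626, 0.362, 0.0313, 0.720 and 0.0303 FPKM. Jejunal library 2 reached 1 FPKM in 1 of the 10, as did ileal library 2. Only 5 of the 10 were at 5 FPKM or more in all of jejunal libraries 1, 3, 4 and 5. The normally fed libraries, which were not used to choose these genes, had the same direction in 18 of 18 and 10 of 10. The same bounds of 10 and 1 FPKM were met there by 8 of the 18 and 6 of the 10. Of the 9 and 7 genes chosen with all 10 libraries, 8 and 7 had the same direction under normal feeding. The normally fed ileal and jejunal medians of the 18 were 16.7 FPKM and 0.221 FPKM, and those of the 10 were 0.218 FPKM and 16.9 FPKM.

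The segment difference under restriction was set beside that under normal feeding, where 828 of 12844 genes passed, or 6.45% (limma). The feeding groups share no library. Over the 12496 genes tested under both, 72.3% had the same sign and the differences correlated at r = 0.838, or 0.843 without number 2. Genes are not independent replicates, and this is a description. The SD of the log2 difference across genes was 0.407 under restriction, 0.498 without number 2 and 0.450 under normal feeding. Differences of at least 2-fold numbered 344, 507 and 375 in these 3 sets, and the median standard error was 0.185, 0.176 and 0.135.

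Genes with larger differences under normal feeding also had larger ones under restriction. Of the 828, 811 had the same sign. The 554 that differed less than 2-fold had a median of 0.60 under normal and 0.45 under restricted feeding, on the log2 scale in the direction of normal feeding. The 177 between 2-fold and 4-fold had 1.35 and 1.03, the 79 between 4-fold and 16-fold 2.55 and 1.997, and the 18 above it 4.92 and 4.198. Without number 2 the restricted medians were 0.54, 1.26, 2.52 and 5.42. By number, the 18 largest had medians of 5.90, -0.10, 6.19, 5.06 and 5.40 in numbers 1 to 5, where a negative value is opposite to normal feeding. In number 2 these 18 ran from -3.03 to 1.58, with 6 in the direction of normal feeding and 5 at least 2-fold different in either direction. These genes were chosen for their difference under normal feeding, which favours smaller values elsewhere.

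The 274 genes that passed without number 2 were followed the other way. Of the 273 tested under normal feeding, 271 had the same sign there, and 178 were among the 828. Their median difference in the direction of restriction was 1.13, against 0.84 under normal feeding. These genes were chosen for their difference under restriction, which favours a smaller value under normal feeding. Of the 4 genes given above, gene10088 had a log2 difference of 10.53 ± 0.547 and gene5654 of -9.08 ± 1.02 under normal feeding (SE, limma, adjusted p = 6.66e-06 and 0.000729). The difference of gene12423 was 0.83 ± 0.240 (SE, limma, adjusted p = 0.0689). For gene27362 it was -0.26 ± 0.327 (SE, limma, adjusted p = 0.722), with 1.09 to 4.04 FPKM in the normally fed ileum and 0.984 to 5.32 FPKM in the jejunum, where the groups overlapped.

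Whether the segment difference itself changed with feeding was tested by the interaction over all 20 libraries. No gene passed (limma, 13279 genes, smallest adjusted p = 0.9999; 0% of genes), and 262, or 1.97%, had an unadjusted p under 0.05. No gene passed without both libraries numbered 2 either. The interaction estimate of gene27362 was -0.72 ± 0.386 and that of gene10088 -3.39 ± 2.10 (SE, limma, adjusted p = 0.9999 for both). A different segment pattern under restriction is thus not shown for any gene, nor are the patterns shown to be alike.

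**Figure D5:**
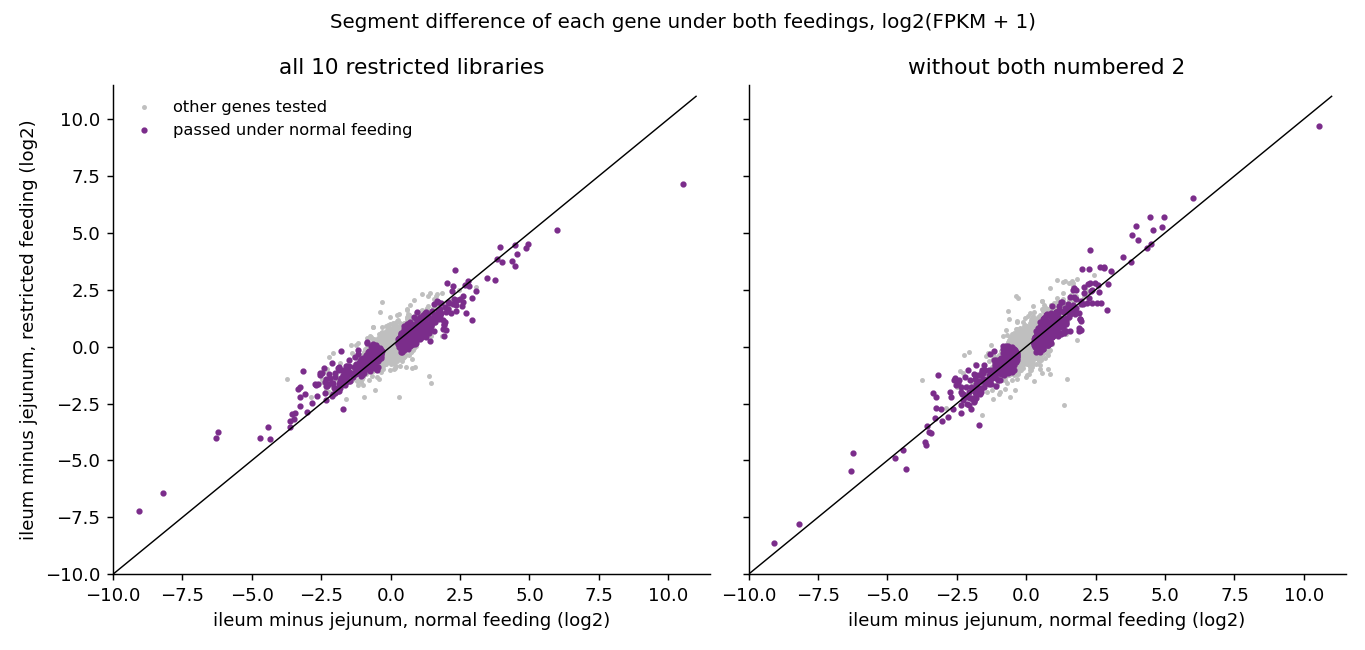
Log2 difference, ileum minus jejunum, of 12496 genes under normal feeding (x axis) and restricted feeding (y axis), with all 10 restricted libraries on the left and without both numbered 2 on the right; purple points are genes that passed under normal feeding and the line marks equal values. Most large differences lie closer to zero than the line on the left, and nearer to the line on the right.

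The number of genes expressed was compared between the restricted segments. At 1 FPKM or more, ileal libraries 1 to 5 expressed 12576, 12458, 12711, 12525 and 12768 of the genes listed in both segments. Jejunal libraries 1 to 5 expressed 12593, 12250, 12414, 12462 and 12437. The ileal library was higher in 4 of 5 numbers, and the groups overlapped. The means were 12608 ± 129 and 12431 ± 123 (SD, n = 5, exact two-sided permutation test, p = 0.0714, or 0.125 when adjusted over 7 measures of a library). At 5 FPKM the means were 9156 ± 120 and 8944 ± 77.9 (exact permutation test, p = 0.0238, adjusted p = 0.0833), and above 0 FPKM they were 16424 ± 62.1 and 16256 ± 88.6 (exact permutation test, p = 0.0159, adjusted p = 0.0833). None of the 7 measures passed the adjustment. Relative depth was also higher in the ileum in 4 of 5 numbers, at 1.04 ± 0.048 against 0.992 ± 0.042 (exact permutation test, p = 0.198), and its part in the gene counts was not tested.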

How the data were processed

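RNA of jejunum and ileum was sequenced from libraries made with an NEBNext Ultra kit, per the labels' protocols. The authors deposited 1 table of FPKM per library, per the file headers. An aligner, a counting tool, a build and an annotation were not given in the sources used here. None of the 18426 IDs matched the RefSeq sheep table (0 matches). At 1 FPKM or more in at least 4 restricted libraries of its segment stood 0 of the 368 genes listed in ileal and 0 of the 375 listed in jejunal tables alone, which were left out.

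Log2(FPKM + 1) was tested with limma and a mean-variance trend (limma 3.58.1, R 4.3.3), with Benjamini-Hochberg adjustment over the genes tested and a threshold of 0.05. Fold changes on this scale understate the change of low genes. Except for those on the filter, alternatives of the segment test used the same 12640 genes and those of the interaction the same 13279. The genes followed from normal feeding and the nearly silent genes were not limited to the 12640. The code was tested on simulated data. Single values were compared by exact permutation (scipy 1.17.1). The labels do not say that samples came from separate ewes, so a p-value covers the spread between samples that may be technical.

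The read total is unknown. Relative depth was taken from the most frequent ratio of values below 0.08 FPKM. Equal numbers may mark 1 ewe: deviations of same-numbered libraries from their group means correlated at 0.178, 0.656, 0.488, 0.576 and 0.530, each over the bound of 0.1. Numbers were treated as pairs in the replicate block and in the comparisons by number. This pairing comes from the data, not the labels. Unequal numbers reached 0.459, above the 0.178 of number 1, so passing the bound does not show that equal numbers mark 1 ewe. The closest library of the other segment had the same number for 5 jejunal and 4 ileal libraries. The main fit, the main interaction and the main permutation tests left the number out, and the block was an alternative.

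Named genes were, in each direction, the gene with the largest log2 difference and that with the smallest p among genes that did not overlap. The members, lists and alternatives were chosen with earlier results of these data known. Alternatives covered the pseudocount, filter, scaling, block, library weights, a joint fit and left-out libraries.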

Additional observations from a re-analysis of the deposited data

Results flagged for a closer look

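The level of gene5654 in jejunal library 2, at 149.9 FPKM, lay far from the other 4 restricted jejunal libraries, which held 4484 to 10434 FPKM. The count of genes in which both libraries of a number lay 2-fold below the other 8 restricted libraries was 187 for number 2, far from the 1 to 8 of the other numbers. Chance marks about 1 in 20 groups of 5 values picked at random, a rate that holds for neither result. The gene5654 was picked for its large difference, and number 2 had already been seen to stand apart.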

How the results depend on the processing

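The count of 0 genes that passed between the segments was 477 with library weights, 266 in a single fit of all 20 libraries, 274 without both libraries numbered 2, 857 without them and with the number as a block, and 1 with no filter (limma). Leaving out 1 library gave 0 to 137 genes, above 0 for either library numbered 2. The 1397 genes at an unadjusted p under 0.05 became 2614 with the replicate block, 2393 with library weights and 3069 without both libraries numbered 2 and with the block, and 1048 to 1870 with 1 library left out. The surplus of 176.4 expressed genes in the ileum was 123.8 at 0.1 FPKM (exact permutation test, p = 0.0476) and 212.6 at 5 FPKM (exact permutation test, p = 0.0238), and 131.1 to 216.9 with 1 library left out. It passed 0.05 without jejunal library 1 or ileal library 2. The 9 genes nearly restricted to the ileum were 18 without both libraries numbered 2, and 7 to 14 with 1 library left out. The 7 of the jejunum were 13 with bounds of 0.5 and 5 FPKM, and 6 to 12 with 1 library left out. The share of normal-feeding genes with the same sign stayed at 96.3% to 98.3% with 1 library left out, and the interaction gave 0 genes in each alternative run. The direction of the 4 named genes did not reverse in any alternative. They were picked from these same libraries for a large or non-overlapping difference, which favours a stable direction. The replicate block moved the 262 interaction genes at an unadjusted p under 0.05 to 546. The cause of these changes was not tested. Unknown read totals leave the counting error of low values unmeasured.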
